A study of Homo sapiens with 6 samples.

Results

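The genes described here encode nuclear subunits and close partners of the oxidative phosphorylation (OXPHOS) complexes of mitochondria, measured in MDA-MB-231 cells, a basal-like human breast cancer line. They were taken by a pattern of gene symbols from the annotation of the array (NDUFA, NDUFB, NDUFC, NDUFS and NDUFV subunits, SDHA to SDHD, UQCR genes, CYC1, COX4 to COX8 subunits and ATP5 genes), with the transcript cluster of highest mean signal for each symbol. A transcript cluster is the set of array probes that reads 1 transcribed locus. The pattern found 24 of the 14884 gene symbols that the annotation names. Of these 24, 7 belong to complex III, 14 to complex IV and 3 to complex V. No symbol (0) of complex I and none (0) of complex II was named, so these complexes were not analysed here, nor were the catalytic subunits of complex V. The symbols COX4I1, COX4I2 and COX7A2L fall outside the pattern and are given with the related genes further on.

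The treated cells were 3 cultures given S-adenosylmethionine (SAM), the universal methyl donor, at 200 μM by the study's methods, added to the medium every other day from the second day until harvest. The 3 Control cultures of the same line received no SAM. The labels call them untreated, whereas the in vitro experiments of the study are described as having vehicle-treated controls. RNA of each culture was hybridized to 1 Affymetrix Human Gene 2.0 ST array, and every value is a log2 signal computed by Robust Multi-array Average (RMA), a method that corrects the background, sets the distributions of the arrays equal and combines the probes of a transcript cluster. All 6 arrays come from 1 cell line, and their number limits the precision.

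In the inner mitochondrial membrane, complexes I to IV pass electrons from NADH and succinate to oxygen, and all of them but complex II pump protons. Complex V, the ATP synthase, uses the proton gradient to make ATP. Complex III (the cytochrome bc1 complex) hands electrons to cytochrome c, and complex IV (cytochrome c oxidase) reduces oxygen to water. Most subunits are encoded in the nucleus, a few core ones in mitochondrial DNA, and the nuclear genes are known targets of the transcription factors NRF1, of the ETS family (GABPA) and YY1. Complex IV also has alternative nuclear subunits that are best known from heart and skeletal muscle or from testis.

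Motifs of these factors were looked up in the promoters of the members, as a feature that the choice of genes did not use. A RefSeq promoter of GRCh38.p14 (250 bases before to 50 after the first listed start of a gene) was matched for 18 of the 24 members. UQCRB, UQCRHL, CYC1, UQCRBP1, COX7A1 and COX6C had none in the table. The ETS core CCGGAAG, on either strand, was found in 6 of these 18 promoters (33.3%), against 10.7% of all 27305 genes with a promoter. The NRF1 core GCGCATGCG was found in 1 (5.56% against 2.1%), the YY1 core AAGATGGCG in 1 (5.56% against 1.85%) and the CCAAT box in 11 (61.1% against 35.7%). A match describes these letters and is no evidence of binding. The windows below are shown because they hold the ETS, NRF1 or YY1 letters in members of complexes III and IV, on the strand of the gene, 5′ to 3′, with the match in capitals (the reverse complement of the core where the match lies on the other strand).
COX6A1, NRF1, chr12:120437884-120437912, plus strand: ggagggcacaCGCATGCGCacgaaggaaa
COX6A1, ETS, chr12:120438087-120438113, plus strand: tccacttccgCTTCCGGcgctgcggca
COX8A, ETS, chr11:63974592-63974618, plus strand: agctccagaaCTTCCGGccagcgcagc
COX6B1, ETS, chr19:35648301-35648327, plus strand: cctctctcagCTTCCGGctggtagtag
COX5B, ETS, chr2:97646015-97646041, plus strand: aagcccgcccCCGGAAGtccctcctgt
UQCRH, ETS, chr1:46303642-46303668, plus strand: gtgtgccgcaCTTCCGGccagatcgcc
UQCRC1, YY1, chr3:48609605-48609633, minus strand: ctgcagctggAAGATGGCGgcgtccgtgg
COX5B holds a second ETS match. The complex V gene ATP5MK holds ETS matches that overlap each other, at -160 and -163 from the gene start, and a separate match at -3.

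The arrays were first compared as wholes. The median signal over all 53617 transcript clusters was 4.83 to 4.85 on the SAM arrays and 4.75 to 4.83 on the Control arrays. Control replicate 1 had the lowest mean correlation with the other arrays (0.964, against 0.974 to 0.98 for the rest). Of 8 genes fixed as bright in this line, 5 are named by the annotation (VIM, CD44, AXL, EGFR and S100A4), with mean signals of 6.42 to 10.5. Of 7 genes fixed as dim, 6 are named (ESR1, PGR, FOXA1, ERBB3, GATA3 and EPCAM), with mean signals of 4.12 to 6.54. PGR alone of the 6 lay under the array median on all 6 arrays. EPCAM, at 6.54, was brighter than S100A4, at 6.42, so the bright and the dim genes were not fully separated. PECAM1, an endothelial gene, had a mean signal of 5.63. The fixed muscle and leukocyte markers are not named by the annotation, and signals of different transcript clusters are not on one scale, so the identity of the line was checked only to this extent. In bulk RNA, fewer cells that express a gene and less RNA per cell cannot be told apart.

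SAM-treatment changed none (0) of the 24 OXPHOS genes past the thresholds of the study's methods, an unadjusted P under 0.01 with an absolute fold change over 1.5 in limma. Over all transcript clusters 1.09% were called by this rule, and over all named symbols 0.699%, so that a count of 0 among 24 lies near the background. At an unadjusted P under 0.05, the count was also 0 of 24, against 7.99% of all transcript clusters. The lowest adjusted p among the members was 0.659 (limma, Benjamini-Hochberg), and no transcript cluster on the array (0) reached an adjusted p under 0.05. The log2 fold changes of the 24 genes ran from -0.26 (COX7B2) to 0.26 (ATP5IF1), which is at most 1.20-fold either way. Their median was -0.019, beside -0.021 over all named symbols, and 11 were positive and 13 negative. The balance of signs turned with the scaling, since 14 were positive after a second quantile normalization (median 0.015) and 9 after median centring (median -0.058, with all named symbols then at -0.059). In 2 of 24 genes (8.33%) the groups did not overlap, which means that all SAM arrays were above or all below every Control array, against 15.1% of all transcript clusters.

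**Figure D1:**
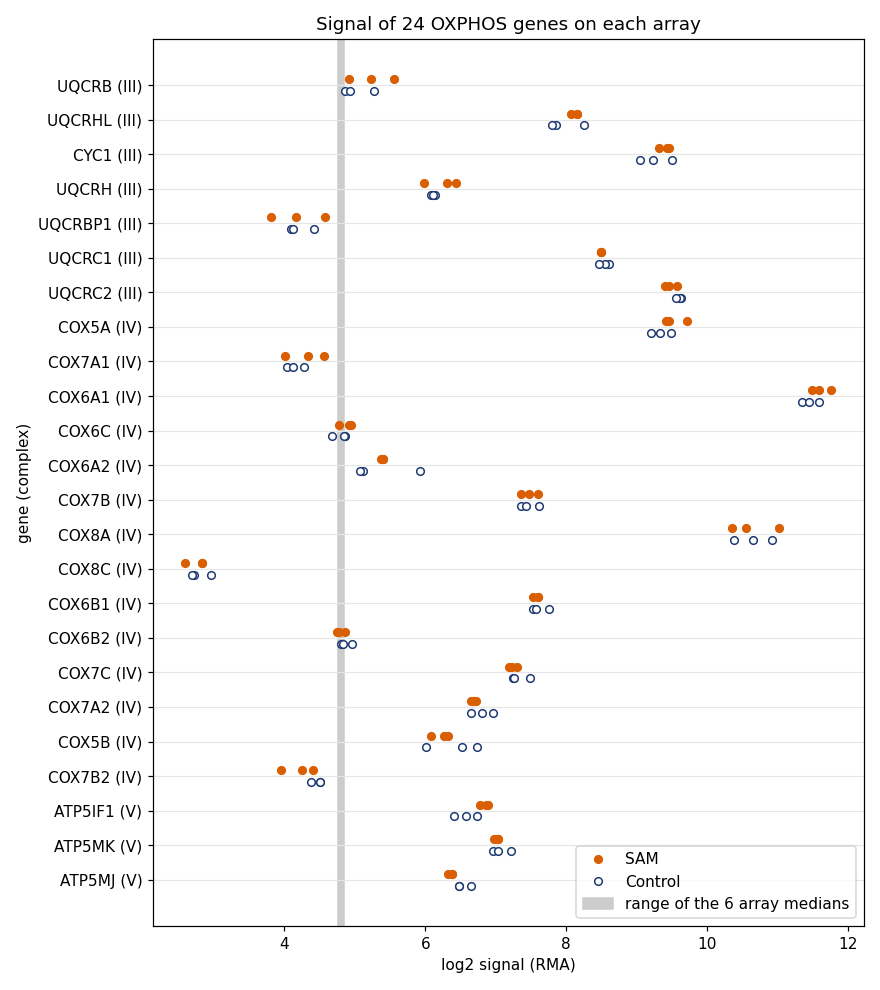
Log2 signal (x axis) of the 24 genes (rows, complex in brackets) on each of the 3 SAM arrays (filled) and the 3 Control arrays (open); the grey band spans the 6 array medians, 4.75 to 4.85. The groups overlap in 22 of the 24 rows and are apart in ATP5IF1 and ATP5MJ.

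The intervals show how large a change these arrays leave possible. The 95% interval of the log2 fold change lay within a 1.5-fold change either way for 21 of the 24 genes (87.5%), against 65.3% of all named symbols. The 3 others were UQCRB (-0.25 to 0.67), COX5B (-0.67 to 0.27) and COX7B2 (-0.62 to 0.09). The 24 genes were also brighter, with a median signal of 6.725 against 5.719 over all named symbols. The share within 1.5-fold was 93.8% for the 16 members over the median signal of all named symbols and 75% for the 8 others. Smaller changes lie within most of the intervals, as for COX7B, a small structural subunit of complex IV (log2 fold change 0.014, interval -0.30 to 0.33). The pooled SD between arrays of a group had a median of 0.135 over the 24 genes, beside 0.172 over all named symbols.

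**Figure D2:**
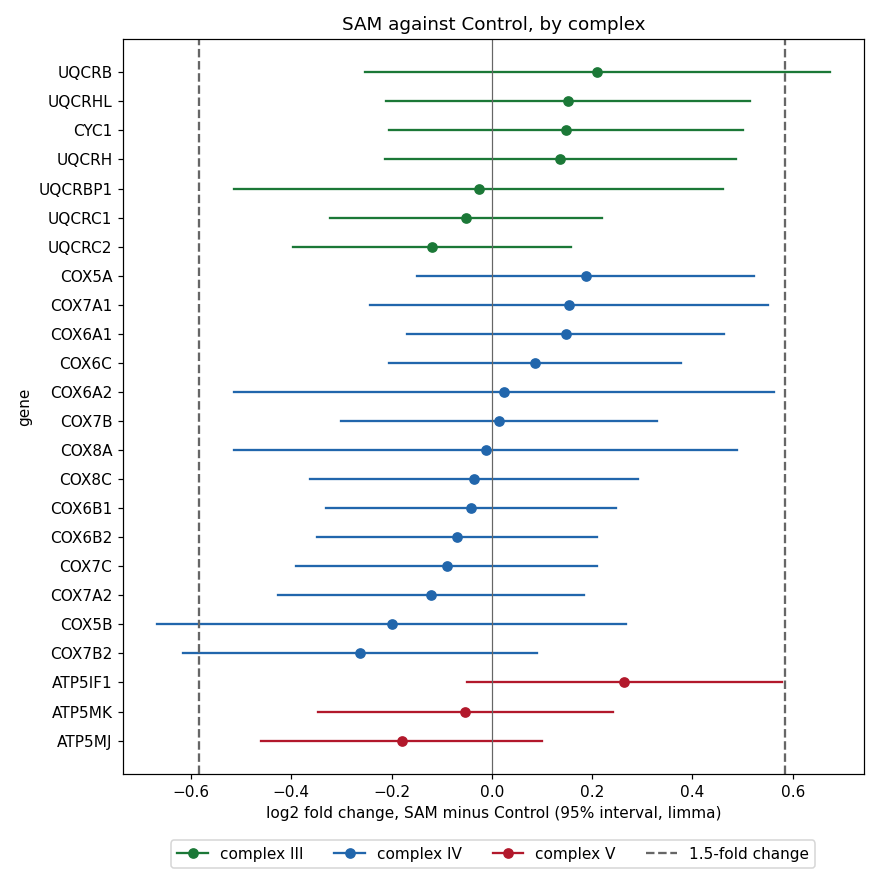
Log2 fold change, SAM minus Control (x axis), of each gene (rows) with its 95% interval from limma, coloured by complex; dashed lines mark a 1.5-fold change. All 24 intervals cross 0, and 3 of them (UQCRB, COX5B, COX7B2) cross a dashed line.

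Complex III had the highest median log2 fold change of the complexes, 0.14 over 7 genes, with 4 positive and 3 negative values, 0 called and 0 with groups apart. That median was 0.038 without Control replicate 2, 0.039 without SAM replicate 1 and 0.063 without Control replicate 3. CYC1, the cytochrome c1 that carries the heme nearest to cytochrome c, had signals of 9.44, 9.32 and 9.46 in SAM-treated cells, against 9.50, 9.04 and 9.23 in Control cells. The SAM values lay inside the range of the Control values (log2 fold change 0.15, SE 0.151, adjusted p = 0.8 in limma), and the log2 fold change was 0.27 without Control replicate 1 and 0.038 without Control replicate 2. UQCRC1, one of the core proteins of the complex, was at 8.49, 8.49 and 8.49 in SAM-treated cells, against 8.61, 8.55 and 8.46 in Control cells. Its SAM arrays were the closest of any member (SD 0.00254, against 0.0768 in Control) and lay within the Control range (log2 fold change -0.052, SE 0.117, adjusted p = 0.916 in limma). UQCRC2, the other core protein, was at 9.57, 9.46 and 9.40 in SAM-treated cells, against 9.62, 9.61 and 9.55 in Control cells. Here 2 of the 3 SAM arrays were below every Control array, and SAM replicate 1 was not (log2 fold change -0.12, SE 0.119, adjusted p = 0.793 in limma).

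The remaining complex III genes each have a near-identical copy in the genome, and array probes may read both. UQCRH, the hinge protein between cytochrome c1 and cytochrome c, was at 6.44, 5.98 and 6.31 in SAM-treated cells, against 6.08, 6.14 and 6.10 in Control cells. Its SAM arrays (SD 0.235) reached both above and below the Control arrays, which were close together (SD 0.0322). UQCRHL, its intronless copy on another part of chromosome 1, was at 8.15, 8.15 and 8.06 in SAM-treated cells, against 8.26, 7.86 and 7.79 in Control cells. Control replicate 1 was the highest of the 6 for this gene, and without that array the log2 fold change was 0.30, against 0.15 with it. UQCRB, the subunit next to the ubiquinone site, was at 5.56, 4.91 and 5.22 in SAM-treated cells, against 5.27, 4.86 and 4.93 in Control cells. It had the largest log2 fold change of the complex (0.21, SE 0.199, adjusted p = 0.780 in limma), and the groups overlap. Without SAM replicate 1 that value was 0.046, below that of UQCRHL (0.14), and it was 0.37 without SAM replicate 2. UQCRBP1, a transcribed pseudogene of UQCRB on chromosome X, was at 4.17, 3.81 and 4.57 in SAM-treated cells, against 4.42, 4.10 and 4.12 in Control cells, under the median of its array on all 6. Its value is no measure of a subunit, and the symbol pattern took it only because of its name.

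Complex IV had a median log2 fold change of -0.024 over 14 genes (0.0086 after a second quantile normalization), with 6 positive and 8 negative values, 0 called and 0 with groups apart. COX5A, a matrix-side subunit that binds thyroid hormone metabolites, was at 9.45, 9.42 and 9.71 in SAM-treated cells, against 9.48, 9.20 and 9.34 in Control cells. It had the largest positive value of the complex (log2 fold change 0.19, SE 0.144, adjusted p = 0.740 in limma), and Control replicate 1 lay above 2 of the SAM arrays. Without SAM replicate 3 the value was 0.094, below that of COX7A1. COX5B, the zinc-binding subunit, was at 6.07, 6.33 and 6.27 in SAM-treated cells, against 6.74, 6.52 and 6.01 in Control cells. Its SAM arrays spread over 0.25 on the log2 scale and its Control arrays over 0.73, and its log2 fold change (-0.20, SE 0.201, adjusted p = 0.794 in limma) was -0.042 without Control replicate 1 and -0.41 without Control replicate 3, where its unadjusted P was under 0.05. Among the subunits, only the value of COX6A2 moved further when 1 array was left out.

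COX6A1, the ubiquitous form of subunit VIa, had 2 transcript clusters that the annotation gives to it. The bright one, used here, was at 11.6, 11.5 and 11.8 in SAM-treated cells, against 11.4, 11.6 and 11.4 in Control cells. The groups overlap (log2 fold change 0.15, SE 0.136, adjusted p = 0.776 in limma). The dim one was at 2.58, 2.29 and 3.14 in SAM-treated cells, against 2.75, 2.89 and 2.69 in Control cells, and its log2 fold change was -0.11. The signs of the COX6A1 clusters differ, and neither passed. Which locus the probes of each cluster read was not checked, so the value of COX6A1 is uncertain to that extent. COX8A, the ubiquitous form of the smallest subunit, was at 10.3, 11.0 and 10.5 in SAM-treated cells, against 10.4, 10.9 and 10.7 in Control cells. Its spread was among the widest of the bright genes, but arrays with the same replicate number lay within 0.11 of each other, and replicate 2 was the highest in both groups. With the replicate number as a block the SE was 0.131, against 0.215 without it, at a log2 fold change of -0.012 in both fits. Over all transcript clusters, arrays of the same number did not deviate together (correlations of -0.00267, -0.0748 and 0.109), so whether the numbers mark shared experiments was not settled here.

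Among the other ubiquitous subunits of complex IV, COX6B1, COX6C, COX7A2, COX7B and COX7C had log2 fold changes between -0.12 (COX7A2) and 0.086 (COX6C). COX6B1, which faces the intermembrane space, was at 7.60, 7.59 and 7.53 in SAM-treated cells, against 7.75, 7.53 and 7.57 in Control cells. COX7A2, the ubiquitous form of subunit VIIa, was at 6.68, 6.64 and 6.72 in SAM-treated cells, against 6.96, 6.65 and 6.81 in Control cells. COX7C was at 7.19, 7.23 and 7.30 in SAM-treated cells, against 7.24, 7.49 and 7.26 in Control cells. In each of these small membrane-associated subunits the groups overlap, and the highest array was a Control array. With Control replicate 1 left out, COX6B1 had a log2 fold change of 0.026 and COX7A2 one of -0.044. COX6C stood at 4.92, 4.94 and 4.78 in SAM-treated cells, against 4.68, 4.86 and 4.85 in Control cells, close to the median of all transcript clusters, so that its lack of a call was measured at a lower signal than that of the genes above.

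Of the alternative subunits of complex IV, COX7A1, COX8C and COX7B2 were dim in both groups. COX7A1, the heart and muscle form of subunit VIIa, was at 4.001, 4.56 and 4.34 in SAM-treated cells, against 4.27, 4.04 and 4.12 in Control cells. COX8C, a testis form of subunit VIII, was at 2.59, 2.83 and 2.82 in SAM-treated cells, against 2.71, 2.69 and 2.96 in Control cells. COX7B2, a testis form of subunit VIIb, was at 3.95, 4.24 and 4.41 in SAM-treated cells, against 4.38, 4.51 and 4.51 in Control cells. All of these lay under the median of their array on all 6 arrays, as did UQCRBP1 and no other member. COX7B2 had the lowest log2 fold change of the 24 genes (-0.26, SE 0.152, adjusted p = 0.681 in limma), with SAM replicate 3 inside the Control range. Without SAM replicate 1 its value was -0.14, and ATP5MJ was then lower. COX6B2, the testis form of subunit VIb, was at 4.86, 4.75 and 4.78 in SAM-treated cells, against 4.81, 4.83 and 4.96 in Control cells, around the array medians.

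COX6A2, the heart and muscle form of subunit VIa, gave the clearest case of a value set by 1 array. It was at 5.40, 5.41 and 5.37 in SAM-treated cells, against 5.92, 5.11 and 5.07 in Control cells. Control replicate 1 lay above all SAM arrays and the other Control arrays below them. The log2 fold change was 0.024 (SE 0.231) with all arrays and 0.30 without Control replicate 1, where its unadjusted P was under 0.05; without Control replicate 3 it was -0.13. The SD was 0.0183 over the SAM arrays and 0.48 over the Control arrays.

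Complex V was represented by 3 genes, none of them a catalytic subunit, and 2 of these were the only members with groups apart. ATP5IF1, the inhibitor that binds the ATP synthase and limits its reverse, ATP-splitting reaction, was at 6.77, 6.86 and 6.89 in SAM-treated cells, against 6.40, 6.58 and 6.74 in Control cells. Every SAM array lay above every Control array, and SAM replicate 1 and Control replicate 3 nearly met. The log2 fold change was 0.26 (SE 0.135, 1.20-fold), the highest of the 24, and its adjusted p was 0.659 in limma. For groups that are apart, an exact permutation test of 3 against 3 arrays always gives p = 0.1 (two-sided), the smallest this design allows. For ATP5IF1 and ATP5MJ it therefore only restates the separation. Leaving out 1 array at a time gave 0.18 (without Control replicate 1) to 0.35 (without Control replicate 3), and a second quantile normalization gave 0.32, with an unadjusted P under 0.05 that no other setting with all 6 arrays gave for any member.

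ATP5MJ, a small membrane subunit also known as the 6.8 kDa proteolipid, was at 6.37, 6.32 and 6.38 in SAM-treated cells, against 6.65, 6.48 and 6.48 in Control cells. Every SAM array lay below every Control array, and the difference in means was small (log2 fold change -0.18, SE 0.12, adjusted p = 0.709 in limma). With any 1 array left out its value stayed between -0.21 and -0.12. ATP5MK, another small membrane subunit, known for its part in dimers of the synthase, was at 7.03, 6.98 and 7.03 in SAM-treated cells, against 7.22, 6.96 and 7.02 in Control cells. Its SAM arrays lay within the Control range (log2 fold change -0.053, SE 0.126), and the value was 0.022 without Control replicate 1. The inhibitor and the proteolipid thus had opposite signs, and the difference between their fold changes was not tested.

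Across the arrays, the members did not shift as a block with treatment. The mean deviation of the 24 genes from their own means was -0.012, -0.018 and 0.046 on the SAM arrays, against 0.064, -0.042 and -0.039 on the Control arrays. The highest and the next highest of these, Control replicate 1 and SAM replicate 3, come from different groups. Of the 24 genes, 10 (41.7%) had their highest signal on Control replicate 1, as did 9 of the 16 brighter members, against 29.1% of all named symbols. For complex III the mean deviations were 0.13, -0.11 and 0.084 on the SAM arrays, against 0.12, -0.11 and -0.11 on the Control arrays, so that arrays of both groups stood high and low. The SD was smaller over the SAM arrays than over the Control arrays in 15 of 24 members (62.5%), against 58.4% of all named symbols. With Control replicate 1 left out, the median log2 fold change of the 24 genes was 0.024, with 13 positive and 11 negative values.

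**Figure D3:**
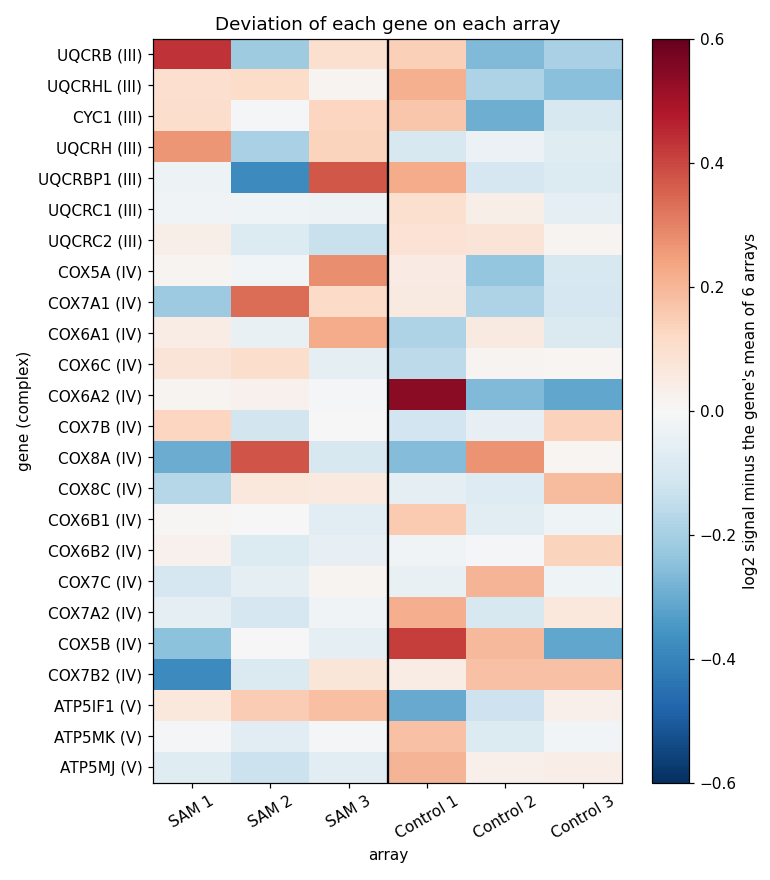
Deviation of each gene (rows, complex in brackets) from its own mean over 6 arrays, on the log2 scale, with the SAM arrays left of the Control arrays. COX6A2 and COX5B are highest on Control replicate 1, COX8A is highest on replicate 2 of both groups, and no column is of one colour throughout.

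Genes that work with these complexes, but were not taken by the symbol pattern, also had 0 calls, against 0.699% of all named symbols. COX4I1, the main form of the largest nuclear subunit of complex IV, was at 9.93, 9.84 and 10.01 in SAM-treated cells, against 10.18, 9.98 and 9.996 in Control cells, a log2 fold change of -0.13 (SE 0.126). COX4I2, the alternative form known from lung and hypoxic cells, was at 6.65, 6.62 and 6.48 in SAM-treated cells, against 5.85, 6.34 and 6.19 in Control cells. Every SAM array lay above every Control array, with the largest log2 fold change of any subunit examined (0.46, SE 0.159, adjusted p = 0.583 in limma), past neither of the thresholds. COX7A2L, a factor of respiratory supercomplexes, was at 6.06, 6.14 and 6.01 in SAM-treated cells, against 6.36, 6.29 and 6.15 in Control cells (log2 fold change -0.20, SE 0.125). Its groups are apart, with SAM below.

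Assembly factors build the complexes from their subunits, and 39 of them were named, with 0 called, 22 positive and 17 negative values and a median log2 fold change of 0.0090. The balance turned to 17 positive and 22 negative after median centring (median -0.030) and to 18 and 21 without SAM replicate 1 (median -0.037), and was 25 and 14 without Control replicate 1 (median 0.072). COX20, which helps to insert a mitochondrially encoded subunit of complex IV, was at 6.78, 6.93 and 6.85 in SAM-treated cells, against 7.35, 7.18 and 7.30 in Control cells. The groups are apart, and the log2 fold change (-0.42, SE 0.122, adjusted p = 0.574 in limma) missed the 1.5-fold minimum at an unadjusted P under 0.01. COA4, a twin cysteine assembly factor of complex IV, had a log2 fold change of 0.32 (SE 0.128), also with groups apart. The groups were apart in 15.4% of the assembly factors and 0 were called, against 18.5% and 0.699% of all named symbols. Of the nuclear-encoded regulators of mitochondrial biogenesis, 10 were named with 0 called and 0 apart, against 0.699% and 18.5% of all named symbols. GABPA was not among these 10. Negative values were found in 8 of the 10, against 54.2% of all named symbols. The median was -0.10, against -0.032 with 6 negative values after a second quantile normalization, -0.061 with 6 without Control replicate 1, and -0.046 and -0.047 without Control replicate 2 and SAM replicate 2. Other settings moved the median further from 0. It was -0.14 with 9 negative values after median centring, with all named symbols then at -0.059. Without Control replicate 3 it was -0.17, and without SAM replicate 1 it was -0.12. Among the 10 genes, the lowest log2 fold change was that of HCFC1, a cofactor of nuclear transcription (-0.30, SE 0.154). NRF1 and YY1, whose motifs are given above, were at -0.018 and -0.023, and SIRT3, a mitochondrial deacetylase, at -0.13.

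The mitochondrial ribosome makes the mitochondrially encoded subunits of the chain, and its proteins had more positive than negative values. Of 73 named genes 0 were called, against 0.699% of all named symbols. A positive log2 fold change was found in 51 and a negative one in 22 (median 0.068). Positive values made up 69.9% of the 73, against 45.8% of all named symbols. All SAM arrays lay above all Control arrays in 12 of the 73, against 7.12% of all transcript clusters and 6.84% of all named symbols. They all lay below in 1, so that the groups were apart in 17.8% of the 73, near the 18.5% of all named symbols. MRPS2, a small subunit protein, was at 6.81, 6.85 and 6.95 in SAM-treated cells, against 6.35, 6.50 and 6.59 in Control cells (log2 fold change 0.39, SE 0.127, adjusted p = 0.576 in limma). MRPL15, of the large subunit, had a log2 fold change of 0.31 (SE 0.121). This majority of positive values rested in part on Control replicate 2, without which 38 of 73 were positive (median 0.0065), and without Control replicate 1 the count was 61. The cytosolic ribosomal proteins, given for comparison, had 19 positive and 33 negative values of 52 (median -0.024), a balance that was 26 to 26 after a second quantile normalization and turned to 33 positive without SAM replicate 2.

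Genes of the tricarboxylic acid cycle and of pyruvate entry, which feed electrons to the chain, went both ways. Of 13 named genes 0 were called, against 0.699% of all named symbols. In 3 all SAM arrays lay above the Control arrays and in 4 all lay below. That is 53.8% of the 13, against 15.1% of all transcript clusters and 18.5% of all named symbols. The list had 5 positive and 8 negative values, but 8 and 5 without Control replicate 1. MPC2, a subunit of the mitochondrial pyruvate carrier, was at 8.43, 8.59 and 8.56 in SAM-treated cells, against 8.20, 8.02 and 8.11 in Control cells (log2 fold change 0.42, SE 0.124, adjusted p = 0.574 in limma). IDH3A, the catalytic subunit of NAD-dependent isocitrate dehydrogenase, had a log2 fold change of 0.44 (SE 0.138), and its partner subunit IDH3G one of -0.21 (SE 0.114). PDP1, which switches on pyruvate dehydrogenase, had one of -0.46 (SE 0.155). Of 32 genes of protein import and inner membrane organization 0 were called, against 0.699% of all named symbols. The groups were apart in 21.9% of the 32, near the 18.5% of all named symbols. APOOL, a cardiolipin-binding protein of the cristae junctions, was at 7.08, 6.99 and 7.16 in SAM-treated cells, against 7.53, 7.56 and 7.47 in Control cells, with groups apart. Its log2 fold change was -0.44 (adjusted p = 0.565 in limma), short of the 1.5-fold minimum. TOMM40, the channel of the outer membrane, had a log2 fold change of 0.37 (SE 0.187).

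**Figure D4:**
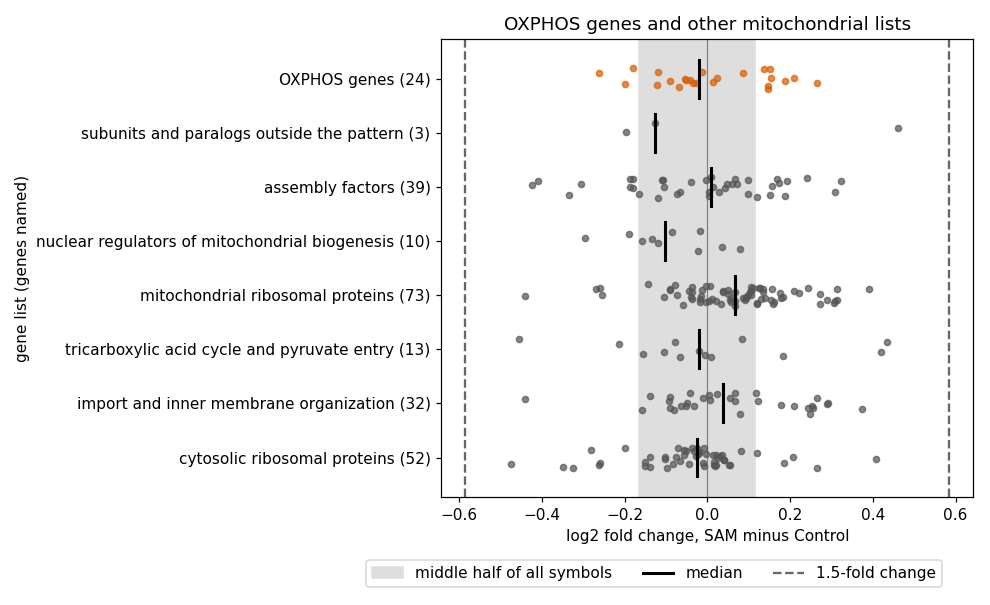
Log2 fold change, SAM minus Control (x axis), of the genes of each list (rows, number named in brackets); a point is 1 gene, the black bar the median of the list, the grey band the interquartile range of all named symbols and the dashed lines a 1.5-fold change. No point passes a dashed line, and the median of the mitochondrial ribosomal proteins (0.068) is the highest of the rows.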

How the data were processed

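The 6 Affymetrix Human Gene 2.0 ST arrays were background-corrected, quantile-normalized and summarized by the authors (RMA, oligo package; its version and the genome build are not given in the sources used here), and the deposited values are log2 signals. A shift common to most transcripts would be removed by this normalization. The platform annotation names 16098 of the 53617 transcript clusters (each with 1 symbol), and the brightest of a symbol was used.

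SAM was compared with Control in limma 3.58.1 (lmFit and eBayes, R 4.3.3) over all transcript clusters with no filter and no covariate; adjusted p-values (Benjamini-Hochberg) cover all of them. The procedure was checked on simulated arrays. The changes added there were larger than that of any member, so recovery of smaller changes was not checked. The methods speak of independent experiments, but the labels do not tie arrays to them. P therefore sets the difference in group means against the spread between these samples.

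The members, gene lists and tests were chosen with earlier results of these data known. Named are, in each complex, the members with the 2 highest and 2 lowest fold changes, the brightest and dimmest, alternative forms of a subunit and redox subunits, and in each other list up to 2 genes with the smallest P; all further genes were named after their values were seen. The alternatives were another quantile normalization, median centring, a filter on dim transcript clusters, annotated ones only, a trended and robust eBayes, a replicate block, the mean of a symbol's transcript clusters, other thresholds and leaving out each array. Coordinates and promoters are from RefSeq GRCh38.p14.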

Additional observations from a re-analysis of the deposited data

How the results depend on the processing

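The count of called OXPHOS genes was 0 under every alternative run, and so under the replicate block, where 659 transcript clusters in all were called, against 582 without it. The replicate block changed no call of a member. The count of OXPHOS genes at an unadjusted P under 0.05 was 0 and became 1 after a second quantile normalization (ATP5IF1); leaving out 1 array gave 0 to 1 (COX6A2 without Control replicate 1, COX5B without Control replicate 3). The median log2 fold change of the complex V genes, -0.053 over only 3 genes, became 0.014 after a second quantile normalization and -0.091 after median centring, and leaving out 1 array gave -0.11 (Control replicate 2) to 0.022 (Control replicate 1). Without UQCRBP1, UQCRHL and ATP5IF1, a choice made after seeing the data, it was -0.12. The medians of complexes III and IV and of all 24 genes moved by less than the spread of their mean level between arrays (SD 0.129, 0.0516 and 0.0494). These spreads are close to the size of the medians or above it, so the medians are not shown to be stable. That of complex III was 0.14 and fell to 0.038 without Control replicate 2. That of complex IV was -0.024 and turned to 0.0086 after a second quantile normalization. That of all 24 turned between -0.058 and 0.024. In 7 of the 24 genes the sign changed when 1 array was left out, all of them with values within 0.053 of 0. The count of all transcript clusters called was 359 without the dim ones and 165 with annotated ones only (fewer were tested), 921 with no fold change minimum and 0 at an adjusted p under 0.05 (4285 at an unadjusted P under 0.05), and leaving out 1 array gave 463 to 934 (Control replicate 2). With 3 arrays a group, changes well under 1.5-fold could not be told from none.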
